A study of Homo sapiens with 6 samples.

Results

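The HOX genes, together with the PBX and MEIS genes that encode their partner proteins, were examined in BT-549, an established cell line of triple-negative breast cancer (TNBC). Members were taken by symbol, as every HOXA, HOXB, HOXC and HOXD gene, every numbered PBX gene and MEIS1 to MEIS3, which gave 46 of the 25545 genes in the expression table, 39 of them HOX genes. BT-549 cells were transfected with a control siRNA (CsiRNA) or with an siRNA against the long noncoding RNA NEAT1 (NEAT1siRNA), and RNA was isolated 48 h later from 3 cultures in each group. The sample titles also carry the word tet, which the protocols do not explain. The labels do not say whether the cultures were independent experiments, so the p-values measure the spread between these samples. In bulk RNA, a change in the number of cells that carry a transcript and a change in its amount per cell cannot be told apart.

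HOX genes encode homeodomain transcription factors that specify position along the body axis, and in mammals they lie in 4 clusters whose order along the chromosome follows the order in which the genes are used from head to tail. PBX and MEIS proteins are TALE-class homeodomain proteins that bind DNA together with HOX proteins. PBX proteins raise the sequence selectivity of HOX binding, and MEIS proteins bind PBX and favour its entry into the nucleus. Adult cells, including those of the breast, keep part of this HOX pattern, and cancer cells often show an altered one.

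The authors deposited TPM (transcripts per 1000000, reads scaled by transcript length and library). Whole reads recovered from these values amounted to between 15786961 and 20343495 per library. NEAT1, the targeted gene, was at 13.4, 7.68 and 10.8 TPM with CsiRNA and at 4.36, 2.96 and 2.73 TPM with NEAT1siRNA, so the groups did not overlap (log2 fold change -1.41, SE 0.14, limma adjusted p = 1.21e-07). VIM at 1046 TPM and SPARC at 347 TPM were high with CsiRNA, whereas EPCAM and ESR1 were listed at 0. VIM and SPARC are mesenchymal markers, EPCAM is an epithelial one and ESR1 encodes the estrogen receptor. The summed level of 6 mesenchymal markers was between 1739 and 1963 TPM with CsiRNA and between 1569 and 1816 TPM with NEAT1siRNA. Of the 6, FN1, CDH2 and CD44 fell past the threshold, where limma called 8.98% of all genes tested lower. VIM and ZEB1 overlapped between groups and did not pass (limma adjusted p = 0.243 and 0.916). SPARC went the other way, from 347 to 367 TPM with no overlap, and did not pass either (limma adjusted p = 0.554). The summed level of 7 epithelial markers was between 1.34 and 1.88 TPM with CsiRNA and between 1.93 and 2.78 TPM with NEAT1siRNA. Most of this sum was KRT18, at 1.35 ± 0.345 and 1.87 ± 0.282 TPM. Its groups overlapped, and it did not pass the threshold (limma adjusted p = 0.0801). The group means of the others were at most 0.194 TPM. The part of these shifts in the results below was not tested.

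BT-549 cells with CsiRNA expressed a HOXB and HOXC pattern. Of the 46 members, 19 were expressed, meaning at least 1 TPM in each of the 3 CsiRNA libraries. Another 10 were low, with a mean of at least 0.1 TPM, 8 were at a trace under that mean, and 9 were listed at 0. The expressed genes were 6 of 10 HOXB genes, 6 of 9 HOXC genes, 1 of 11 HOXA genes and 0 of 9 HOXD genes, with the 3 MEIS genes and most PBX genes. In these libraries 4 short noncoding RNAs took between 64.4% and 68.1% of all TPM, which lowers the TPM of every other gene, and after rescaling without them (a step chosen after seeing the data) 24 members met the same limit, adding HOXA9, HOXA11, HOXC4, HOXC12 and PBX4.

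**Figure D1:**
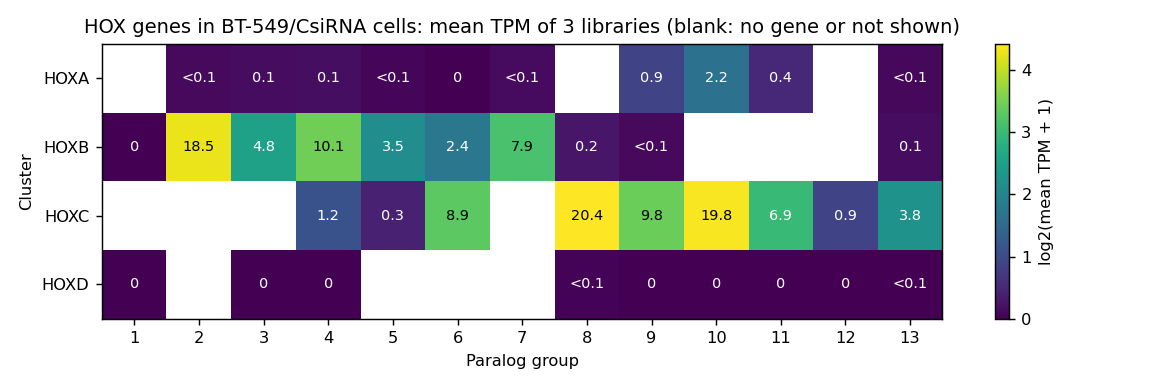
Mean TPM of HOX genes in the 3 CsiRNA libraries, by cluster (rows) and paralog group (columns), with colour on the scale of log2(mean TPM + 1). HOXC8 (20.4 TPM), HOXC10 (19.8 TPM) and HOXB2 (18.5 TPM) are the brightest cells, and the HOXD row is dark throughout.

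HOXC8, a gene of the thoracic part of the axis, was the highest member at 20.4 ± 0.414 TPM (SD, n = 3). HOXC10, a posterior gene of the lumbar level, had 18.3, 20.6 and 20.5 TPM, and HOXB2, an anterior gene with a role in hindbrain segments, had 18.4, 16.9 and 20.2 TPM. The ranges of these 3 genes overlapped in part, so their order is not fixed by these libraries. The median CsiRNA level of all 10721 genes tested was 9.28 TPM, and 6 members stood above it, the others being PBX3 at 10.7 ± 0.902 TPM, HOXB4 at 10.1 ± 1.02 TPM and HOXC9 at 9.79 ± 0.306 TPM (SD, n = 3).

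The HOXA cluster had HOXA10 at 2.18 ± 0.232 TPM as its single expressed gene, with HOXA9 at 0.870 ± 0.214 TPM and HOXA11 at 0.422 ± 0.0703 TPM beside it. Within the HOXB cluster (chr17:48528526-48728750, GRCh38) the block from HOXB2 to HOXB7 was expressed, whereas HOXB8 was at 0.201 ± 0.0918 TPM, HOXB13 at 0.113 ± 0.0264 TPM, HOXB9 at a trace and HOXB1 at 0. In the HOXC cluster (chr12:53938831-54056030) all 9 genes had reads in every library. The HOXD cluster (chr2:176092721-176190907) was close to silent at this depth. HOXD8 had 2, 1 and 1 reads with CsiRNA, HOXD13 had 1 read in 1 library, and the other 7 HOXD genes had 0 reads in each of the 6 libraries, where a count of 0 allows up to 3 reads.

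The PBX genes differed in level. PBX3 was at 10.7 ± 0.902 TPM, PBX2 at 1.95 ± 0.211 TPM and PBX4 at 0.808 ± 0.266 TPM (SD, n = 3). The TPM of PBX2 was low for its reads, since a mean of 1044 recovered reads per library went with 1.95 TPM. The transcript length implied by its reads and TPM was 7.23 times that of its GENCODE transcript, against a range of 0.480 to 1.79 for the 5th to 95th percentile of 10106 genes, and by reads per kb of that transcript PBX2 ranked 4 among the members instead of 17. The ratio of its group means does not depend on this length. A fold change on log2(TPM + 1) does, since the added 1 weighs more at a low TPM. Among the MEIS genes, MEIS2 was at 3.96 ± 0.311 TPM, MEIS1 at 1.73 ± 0.226 TPM and MEIS3 at 1.63 ± 0.249 TPM.

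The comparison of NEAT1siRNA with CsiRNA asked which members responded to NEAT1 silencing. HOXC10, MEIS3 and HOXC6 were among the members called higher in the limma test described next, and that test called no member lower. Genes with a mean of at least 1 TPM were tested with limma on log2(TPM + 1), which took in 20 of the 46 members, and a gene was called at an adjusted p under 0.05. Of the 20, 4 were called higher and 0 lower, where limma called 4.99% of all 10721 genes higher and 8.98% lower. At an unadjusted p under 0.05 the counts were 6 higher and 1 lower, against 9.22% and 18.2% of all genes tested. The voom fit on the recovered reads called 8 higher and 0 lower of 25 members, against 10.9% and 10.8% of 12708 genes. The median log2 fold change of the 20 was 0.15, beside -0.044 for all genes tested, with 15 members positive and 5 negative beside 4214 positive and 6507 negative genes in all. All NEAT1siRNA values lay above the CsiRNA range for 9 members and below it for 1, where 11.0% of all genes tested lay above and 19.3% below.

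**Figure D2:**
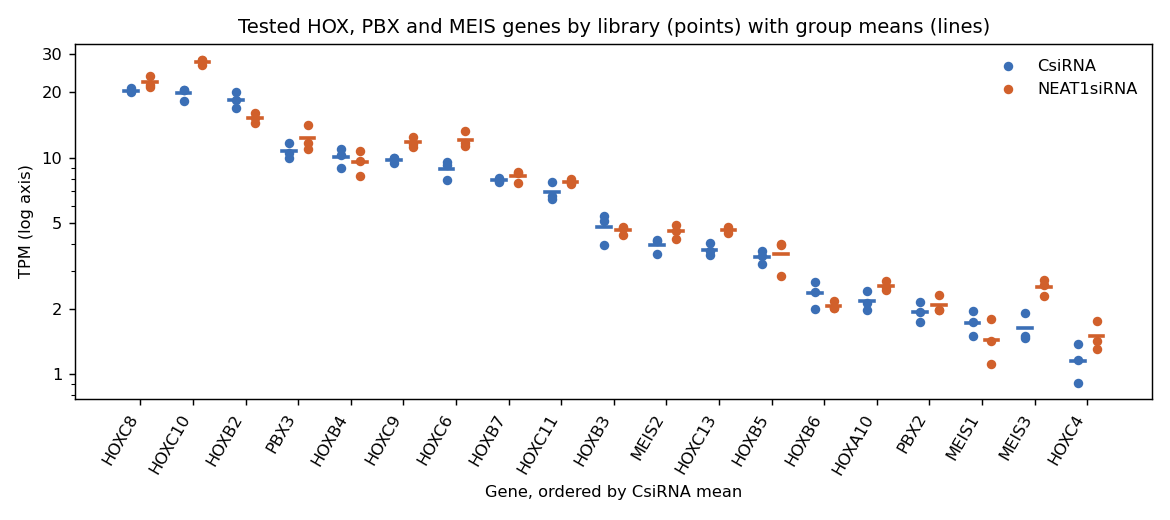
TPM (log axis) of tested members in each of the 3 CsiRNA (blue) and 3 NEAT1siRNA (orange) libraries, ordered by CsiRNA mean, with lines at the group means. HOXC10 and MEIS3 show groups that do not overlap, with means going from 19.8 to 27.7 TPM and from 1.63 to 2.53 TPM.

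PBX3, which encodes a HOX cofactor, had 11.7, 10.4 and 9.96 TPM with CsiRNA and 11.7, 14.2 and 11.0 TPM with NEAT1siRNA. These overlapped, and PBX3 did not pass the test (log2 fold change 0.18, SE 0.10, limma adjusted p = 0.263), although voom called it higher (adjusted p = 0.0297). PBX2 had a log2 fold change of 0.068 in limma (adjusted p = 0.708) and of 0.15 in voom (adjusted p = 0.273). PBX4, under the filter on TPM, had a log2 fold change of 0.041 in voom (adjusted p = 0.938).

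MEIS3 had 1.47, 1.50 and 1.91 TPM with CsiRNA and 2.58, 2.29 and 2.73 TPM with NEAT1siRNA. The groups did not overlap, at a mean of 93.2 recovered reads per library. Its log2 fold change was 0.43 (SE 0.10, limma adjusted p = 0.00497), and the call was lost without the filter on TPM (adjusted p = 0.0774). MEIS2, which like the other MEIS genes encodes a partner of PBX proteins, went from 3.96 ± 0.311 to 4.57 ± 0.322 TPM with no overlap, below the threshold in limma (log2 fold change 0.17, adjusted p = 0.267) and past it in voom (0.25, adjusted p = 0.0383). MEIS1, a gene with a known part in leukemia, had 1.96, 1.50 and 1.74 TPM with CsiRNA and 1.43, 1.79 and 1.11 TPM with NEAT1siRNA, which overlapped (log2 fold change -0.17, limma adjusted p = 0.342).

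**Figure D3:**
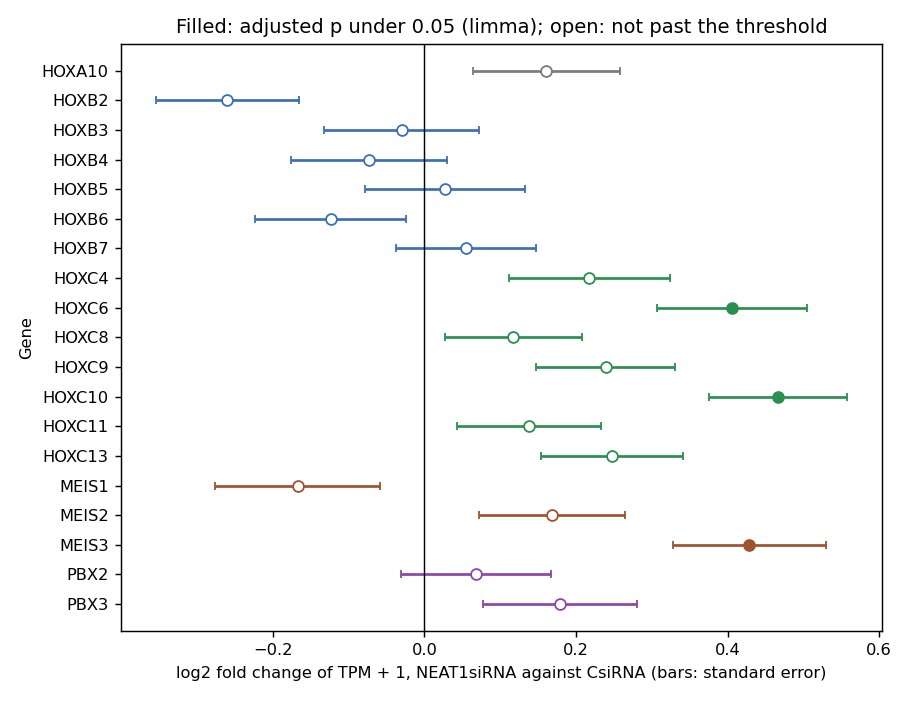
Log2 fold change of TPM + 1 (horizontal axis, NEAT1siRNA against CsiRNA) of tested members with standard errors, coloured by family, filled where the limma adjusted p is under 0.05. The 7 HOXC genes lie between 0.12 and 0.47 and the 6 HOXB genes between -0.26 and 0.055.

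All 7 tested HOXC genes had a positive log2 fold change, with a median of 0.24, where 4214 of all 10721 genes tested were positive. Of the 7, some of which share exons (below), 2 were called higher, against 4.99% of all genes. The median of the 6 tested HOXB genes was -0.052. None of them passed the threshold, against 4.99% of all genes called higher and 8.98% lower. The difference between the clusters was not tested. The summed TPM of the HOXC genes was 69.7, 71.0 and 75.1 with CsiRNA and 89.5, 89.4 and 87.2 with NEAT1siRNA. That of the HOXB genes was 48.3, 43.9 and 50.1 with CsiRNA and 46.6, 43.8 and 40.6 with NEAT1siRNA. The HOXC sums did not overlap between groups and the HOXB sums did, and HOXC genes made up between 57.0% and 59.7% of HOX TPM with CsiRNA and between 63.5% and 65.7% with NEAT1siRNA.

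HOXC10 (chr12:53985065-53990279) had 18.3, 20.6 and 20.5 TPM with CsiRNA and 26.8, 28.1 and 28.2 TPM with NEAT1siRNA. The lowest NEAT1siRNA library was above the highest CsiRNA library. The mean rose from 19.8 ± 1.30 to 27.7 ± 0.790 TPM (SD, n = 3). Its log2 fold change was 0.47 (SE 0.091, limma adjusted p = 0.000975), and the call held in all 17 alternatives. HOXC6 (chr12:53990624-54030823), a gene of the border between the cervical and thoracic levels, had 9.27, 7.88 and 9.53 TPM with CsiRNA and 13.3, 11.3 and 11.7 TPM with NEAT1siRNA. It rose by a log2 fold change of 0.41 (SE 0.098, limma adjusted p = 0.00636) with no overlap. Without CsiRNA replicate 2 its adjusted p was 0.0558, and without the filter on TPM 0.0839.

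Some of these genes share exons in the annotation. HOXC6 overlaps HOXC4 and HOXC9 on its own strand and HOXC-AS2 on the other, and HOXC10 overlaps an unnamed gene (ENSG00000273049) on its own strand and HOXC-AS3 on the other. The library kit keeps strand, but the strand setting of the counting is not given in the sources used here, so reads of such neighbours may be divided between them. HOXC8, HOXC11 and HOXC12 have no such overlap.

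The other HOXC genes did not pass the limma test. HOXC13, the most posterior HOXC gene, known for hair and nail keratin expression, had 3.69, 3.56 and 4.03 TPM with CsiRNA and 4.68, 4.80 and 4.48 TPM with NEAT1siRNA, without overlap (log2 fold change 0.25, limma adjusted p = 0.0786). HOXC9 went from 9.79 ± 0.306 to 11.7 ± 0.665 TPM, also without overlap (0.24, limma adjusted p = 0.0830). Both were called by voom, with adjusted p of 0.0227 for HOXC13 and 0.0270 for HOXC9. HOXC8 went from 20.4 ± 0.414 to 22.2 ± 1.41 TPM (0.12, limma adjusted p = 0.436) and HOXC11 from 6.94 ± 0.700 to 7.72 ± 0.228 TPM (0.14, limma adjusted p = 0.372). HOXC4 went from 1.15 ± 0.232 to 1.50 ± 0.233 TPM (0.22, limma adjusted p = 0.184). HOXC5 at 0.327 and 0.341 TPM and HOXC12 at 0.871 and 0.721 TPM were under the filter, and voom called neither.

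HOXB2 had 18.4, 16.9 and 20.2 TPM with CsiRNA and 16.1, 14.5 and 15.2 TPM with NEAT1siRNA. It was the single member with all NEAT1siRNA values below the CsiRNA range, and it missed the threshold (log2 fold change -0.26, SE 0.094, limma adjusted p = 0.0670). HOXB3 went from 4.80 ± 0.744 to 4.65 ± 0.208 TPM, HOXB4 from 10.1 ± 1.02 to 9.53 ± 1.25 TPM and HOXB5 from 3.48 ± 0.249 to 3.59 ± 0.642 TPM. HOXB6 went from 2.36 ± 0.336 to 2.07 ± 0.0847 TPM and HOXB7, a gene studied in breast cancer, from 7.85 ± 0.188 to 8.21 ± 0.527 TPM. For these 5 HOXB genes the groups overlapped and the limma adjusted p ran from 0.459 to 0.904.

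In the HOXA cluster HOXA10, a regulator of uterine and blood cell development, had 2.43, 1.97 and 2.14 TPM with CsiRNA and 2.45, 2.52 and 2.68 TPM with NEAT1siRNA. The NEAT1siRNA values were all above the CsiRNA range by a narrow margin (log2 fold change 0.16, limma adjusted p = 0.300). HOXA9 (0.870 and 0.938 TPM) and HOXA11 (0.422 and 0.515 TPM) were not called by voom. HOXA13 had 1, 7 and 3 reads with CsiRNA and 7, 19 and 7 with NEAT1siRNA. It was under the filter on TPM, and in the fit without that filter its adjusted p was 0.280 in limma. HOXA3 (0.107 and 0.119 TPM) and HOXA4 (0.127 and 0.221 TPM) overlapped between groups.

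**Figure D4:**
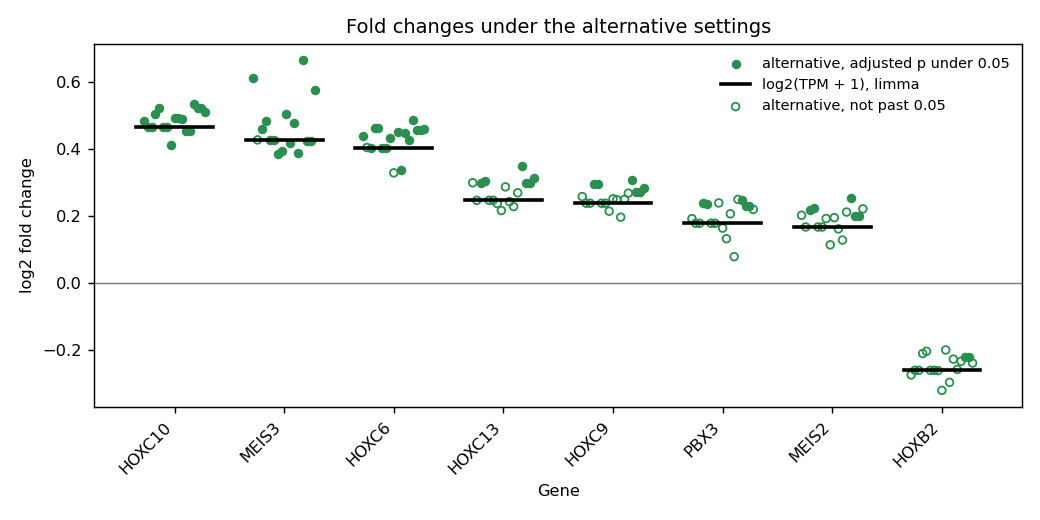
Log2 fold change (vertical axis) of 8 members under the alternative settings (points, filled where the adjusted p is under 0.05), with the limma value on log2(TPM + 1) as a line. They are HOXC10, MEIS3 and HOXC6, which were called, and 5 not called in the limma test but past the threshold in some alternatives. These 5, HOXC13, HOXC9, PBX3, MEIS2 and HOXB2, were chosen after their values were seen. HOXC10 is filled in every alternative.

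Other scalings called more members, and more of all genes. Quantile normalization and median centring each called 8 members higher, adding HOXC9, HOXC13, MEIS2 and PBX3, against 10.1% and 10.8% of all genes. The libraries differed in how the level of a gene went with its GC content, with Spearman rho across 10106 genes between -0.73 and 0.68 and both signs within each group. With the dependence on GC content and length removed, 11 members were higher against 16.6% of genes, and 1, HOXB2, was lower (log2 fold change -0.22, limma adjusted p = 0.0221) against 17.2%.

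The RefSeq table of promoter windows, which run from 250 bases before to 50 after a start, matched 26 of the 46 members with 35 windows on GRCh38.p14. The windows were searched on both strands for TGATNNAT, a core site of HOX and PBX pairs. It was found in 4 of 35 member windows (11.4%), those of HOXA2, HOXB1, HOXD11 and MEIS2, beside 2598 of 35116 promoters of the same length (7.40%). A match is a description of the letters and no match says only that these letters are not in the window. The windows below are shown because MEIS3 rose, because HOXC4 and HOXC5 share 1 window while their levels differed (1.15 and 0.327 TPM with CsiRNA), and because HOXB1 carries the motif, in capitals, while its reads were 0 in all 6 libraries. Each is printed 5′ to 3′ on the strand of its gene.
MEIS3, chr19:47419478-47419777, minus strand: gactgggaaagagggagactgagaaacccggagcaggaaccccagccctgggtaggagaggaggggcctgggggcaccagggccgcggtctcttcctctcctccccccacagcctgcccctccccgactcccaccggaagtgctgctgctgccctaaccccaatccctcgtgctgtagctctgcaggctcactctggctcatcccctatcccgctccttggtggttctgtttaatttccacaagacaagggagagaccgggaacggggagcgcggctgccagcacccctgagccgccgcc
HOXC4 and HOXC5, chr12:54016638-54016937, plus strand: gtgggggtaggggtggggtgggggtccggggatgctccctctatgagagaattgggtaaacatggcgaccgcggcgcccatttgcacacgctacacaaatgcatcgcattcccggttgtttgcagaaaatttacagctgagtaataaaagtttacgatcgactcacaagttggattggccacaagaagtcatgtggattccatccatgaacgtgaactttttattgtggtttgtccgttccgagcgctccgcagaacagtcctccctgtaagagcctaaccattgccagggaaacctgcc
HOXB1, chr17:48530962-48531261, minus strand: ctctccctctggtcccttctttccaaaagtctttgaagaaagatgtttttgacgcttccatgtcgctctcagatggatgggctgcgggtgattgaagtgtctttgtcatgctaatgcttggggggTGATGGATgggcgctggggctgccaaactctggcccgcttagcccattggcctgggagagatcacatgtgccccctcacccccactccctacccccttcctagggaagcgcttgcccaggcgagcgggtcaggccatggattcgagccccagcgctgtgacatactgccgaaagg

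Genes that work with or upstream of HOX genes were described from 6 lists. Of the retinoic acid receptors and enzymes, which carry the signal that activates HOX clusters in the embryo, 8 were tested, 5 rose and 1 fell, where limma called 4.99% of all genes tested higher and 8.98% lower, with a median log2 fold change of 0.39 beside -0.044 for all genes. RARA and RARG encode retinoic acid receptors. RARA had 3.61, 3.63 and 4.12 TPM with CsiRNA and 7.73, 6.33 and 6.80 TPM with NEAT1siRNA (log2 fold change 0.73, limma adjusted p = 1.24e-05). RARG went from 6.05 ± 0.0585 to 8.70 ± 0.933 TPM (0.45, limma adjusted p = 0.00200) and RXRA, the partner receptor, from 2.17 ± 0.300 to 2.97 ± 0.252 TPM (0.33, limma adjusted p = 0.0290).

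DHRS3, which reduces retinaldehyde to retinol, had 24.0, 22.0 and 23.0 TPM with CsiRNA and 48.8, 46.9 and 48.5 TPM with NEAT1siRNA (log2 fold change 1.03, limma adjusted p = 1.30e-08). CRABP2, a carrier of retinoic acid to its receptors, went from 0.630 ± 0.156 to 2.07 ± 0.471 TPM at a mean of 27.5 reads (0.91, limma adjusted p = 3.49e-06). Its CsiRNA values (0.634, 0.783 and 0.471 TPM) were all under the filter. It thus entered the test, and the counts of this list, only through its NEAT1siRNA values. ALDH1A3, which makes retinoic acid from retinaldehyde, fell from 15.7 ± 1.81 to 7.80 ± 0.138 TPM (-0.92, limma adjusted p = 3.04e-07). Groups did not overlap for any of these 6 genes, where 11.0% of all genes tested lay above the CsiRNA range and 19.3% below. The 6 were picked by the limma call on the same values, so the lack of overlap adds no support. The RXRA call was lost without CsiRNA replicate 2, CsiRNA replicate 3 or NEAT1siRNA replicate 1 (limma adjusted p up to 0.112).

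**Figure D5:**
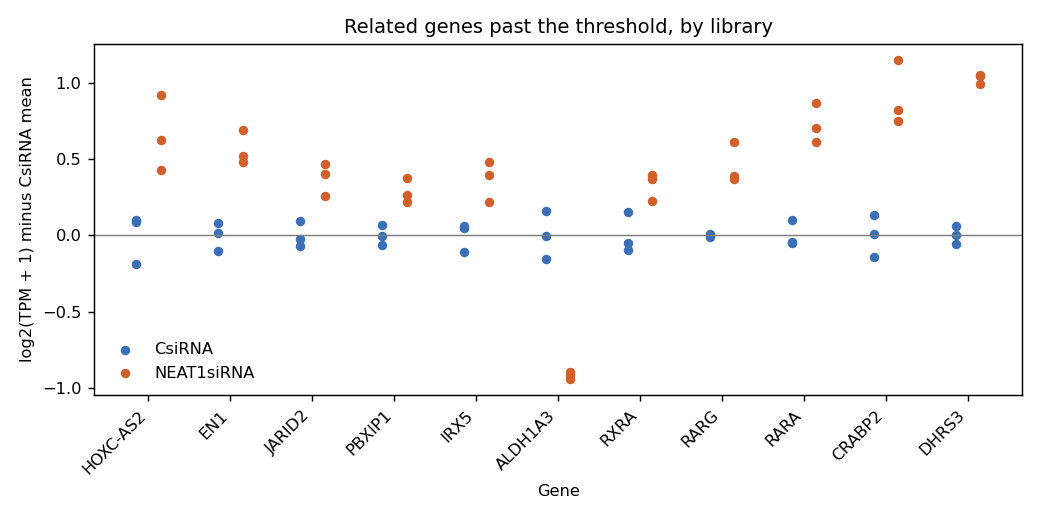
log2(TPM + 1) minus the CsiRNA mean (vertical axis) of related genes past the threshold, for each CsiRNA (blue) and NEAT1siRNA (orange) library. The orange points lie below the blue ones for ALDH1A3 and above them for the other genes shown.

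Among the noncoding RNAs of the HOX clusters, 7 were tested and 1 rose, against 4.99% of all genes, with a median of 0.16. HOXC13-AS, 1 of the 7, had a mean of 0.894 TPM with CsiRNA, under the filter, and of 1.15 TPM with NEAT1siRNA. It thus entered the test and this median (log2 fold change 0.19) only through its NEAT1siRNA values. HOXC-AS2, which is antisense to HOXC6 and HOXC9, went from 1.34 ± 0.258 to 2.71 ± 0.648 TPM at a mean of 10.2 reads (0.66, limma adjusted p = 0.000346). HOXC-AS3, the highest of this list by mean TPM but not by reads per kb of its GENCODE transcript, was at 9.20 and 9.68 TPM (limma adjusted p = 0.793), and HOTAIR, a noncoding RNA of the HOXC cluster, had a ratio of means of 1.20 (limma adjusted p = 0.257). Of 5 tested TALE genes and PBXIP1, 2 rose, against 4.99% of all genes. PBXIP1, whose product binds PBX proteins and estrogen receptors, went from 4.57 ± 0.262 to 5.80 ± 0.391 TPM (0.29, limma adjusted p = 0.0425), a call lost on leaving out 5 of the 6 libraries in turn, all but NEAT1siRNA replicate 2 (adjusted p up to 0.170). TGIF2, a TALE-class repressor and the highest of this list, was at 10.7 and 11.8 TPM (limma adjusted p = 0.404). IRX5, an Iroquois homeobox gene, went from 8.32 ± 0.585 to 11.0 ± 1.10 TPM (0.37, limma adjusted p = 0.0124), a call lost without CsiRNA replicate 3 or NEAT1siRNA replicate 3 (adjusted p up to 0.0570).

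Of the HOX-related homeobox genes, 3 of 21 were tested, and 1 of them rose against 4.99% of all genes. EN1, an engrailed gene, rose from 2.10 ± 0.199 to 3.59 ± 0.358 TPM (0.57, limma adjusted p = 0.000301). DLX1, the highest of them, was at 3.20 and 2.86 TPM (limma adjusted p = 0.494). Polycomb proteins keep HOX genes silent, and of 17 tested 2 rose, JARID2 among them, and 0 fell, against 4.99% and 8.98% of all genes, with a median of 0.039. At an unadjusted p under 0.05, 3 were higher and 2 lower, against 9.22% and 18.2% of all genes, and in voom 2 were higher and 2 lower, against 10.9% and 10.8%. JARID2, an accessory subunit of PRC2, went from 6.81 ± 0.456 to 9.14 ± 0.744 TPM (0.38, limma adjusted p = 0.00879). SUZ12, a PRC2 core subunit and the highest of this list by mean TPM over the 6 libraries, was at 28.3 and 29.1 TPM (limma adjusted p = 0.921), and EZH2, the PRC2 methyltransferase, was at 28.1 and 26.9 TPM (limma adjusted p = 0.717). The CsiRNA values of SUZ12 and EZH2 overlapped, so their order is not fixed. MLL and trithorax proteins keep HOX genes active, and of 19 tested 0 rose and 0 fell in limma, against 4.99% and 8.98% of all genes, with a median of -0.15. At an unadjusted p under 0.05, 1 was higher and 5 were lower, against 9.22% and 18.2% of all genes, and in voom 2 were higher and 2 lower, against 10.9% and 10.8%. KMT2A was at 9.31 ± 1.89 and 7.52 ± 0.747 TPM (-0.26, limma adjusted p = 0.121), and PSIP1, the highest of this list, at 81.0 ± 0.942 and 92.7 ± 11.9 TPM (limma adjusted p = 0.200). Without the filter on TPM, the calls of HOXC-AS2, PBXIP1, IRX5, JARID2 and RXRA were lost, with adjusted p from 0.0729 to 0.143.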

How the data were processed

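RNA from BT-549 cells transfected with CsiRNA or NEAT1siRNA (3 libraries each, 48 h) was sequenced from stranded mRNA libraries. Per the labels and the study's methods, the authors aligned reads with STAR to GRCh38 and compared groups with DESeq2. The deposited expression table gives TPM per gene and library, computed by the authors. How gene lengths were set is not given in the sources used here. The deposited comparison table gives a mean normalized count (signal) over the 6 libraries, used to turn TPM into whole reads. Its log2 fold changes, standard errors, test scores and p-values were not used. Recovered values lay within 0.05 of a whole number for 99.8% of genes whose mean normalized count was under 5, for 98.6% from 5 to 50 and for 13.9% from 500 up, so the reads of high genes are approximate.

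TPM were transformed to log2(TPM + 1), genes with a mean of at least 1 TPM kept (10721), and groups compared with lmFit and eBayes (trend) of limma 3.58.1 in R 4.3.3, with Benjamini-Hochberg adjustment over all genes tested and a threshold of 0.05. The procedure was tested on simulated data. Fold changes of low genes are understated on this scale. With 3 libraries against 3 an exact permutation test cannot go below p = 0.1. Tables and figures used Python 3.11.15, matplotlib 3.10.9, scipy 1.17.1, pandas 2.3.3 and numpy 2.4.6. Coordinates are those of GENCODE on GRCh38 by symbol, and promoters are from RefSeq. Tested members are named, with other members by level, and of the related lists the genes past the threshold and the highest gene of each list. The counts cover all members, but the results of some genes are not reported here. HOTAIR, KMT2A and EZH2 were chosen after their values were seen. Members and lists were chosen with earlier results of these data known. Alternatives were other pseudocounts, filters, scalings and thresholds, voom, a GC and length trend, a replicate block and each library left out in turn. Rescaling without 4 short noncoding RNAs was added after seeing the data.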

Additional observations from a re-analysis of the deposited data

How the results depend on the processing

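Of 20 tested members, 17 kept their sign in every alternative run. HOXB3 turned positive under quantile normalization (0.012), median centring (0.027), voom (0.0079), the GC and length trend (0.052, also with the block), and without CsiRNA replicate 1 (0.0084), CsiRNA replicate 3 (0.041) or NEAT1siRNA replicate 3 (0.0011), with -0.14 to 0.041 over the libraries left out. HOXB4 turned positive without NEAT1siRNA replicate 3 (0.018, with -0.15 to 0.018 over the libraries left out), and HOXB5 negative without CsiRNA replicate 2 (-0.015), NEAT1siRNA replicate 1 (-0.038) or NEAT1siRNA replicate 2 (-0.030, with -0.038 to 0.15 over the libraries left out). None of these 3 passed the threshold.

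The 4 of 20 members higher became 2 of 38 with no filter on TPM and 8 of 25 under voom. Under quantile normalization or median centring they became 8 of 20. They became 11 of 20 with the GC and length trend removed, 12 of 20 with the block added, and 3 to 4 of 20 on leaving out a library. Counts over all genes are given below. The 0 lower became 1 with the trend removed, with or without the block. The member median of 0.15 became 0.055 with no filter, 0.21 under centring, 0.20 under voom, 0.21 with the trend removed, also with the block, and 0.11 to 0.15 on leaving out a library.

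The 11 of 59 related genes higher became 5 of 90 with no filter, 7 of 38 at a mean of at least 5 TPM and 7 at an adjusted p under 0.01. They became 19 of 59 with the trend removed and 18 of 59 with the block added. The 1 of 59 lower became 3 under quantile normalization, 2 under centring, and 4 with the trend removed with or without the block. It became 5 of 64 under voom, 3 of 64 in rescaled TPM and 1 to 4 on leaving out a library.

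Over all 10721 genes tested, 535 higher and 963 lower became 1082 and 1109 under quantile normalization and 1158 and 954 under centring. They became 1391 and 1368 of 12708 under voom, 1680 and 1743 of 10106 with the trend removed, and 1655 and 1679 with the block added. With no filter they became 242 and 263 of 18531. At a mean of at least 5 TPM they became 357 and 675 of 7237, and in rescaled TPM 940 and 1119 of 12252. They became 376 and 383 without CsiRNA replicate 1, 413 and 425 without NEAT1siRNA replicate 3, and 493 and 1590 without NEAT1siRNA replicate 2, so the share of all genes called lower rests on which libraries are used. The labels do not say whether replicate numbers pair the samples. Correlations of same-numbered deviations were -0.030, 0.25 and -0.11, and those of differently numbered ones ran from -0.40 to 0.40. These values cannot settle the pairing, because the libraries also differed in how level went with GC content. With the replicate block, members higher stayed at 4, related genes lower became 2, and the counts over all genes were 579 and 1061. The causes of these changes were not tested. Most HOXA genes and all HOXD genes were under the filter on TPM.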

Other observations

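Protein-coding genes within 500 kb of a HOX cluster, a set chosen after the data were seen, were examined beside the cluster genes. Around the HOXC cluster 12 were tested, 0 were higher and 1 was lower, against 4.99% and 8.98% of all genes, and their median log2 fold change was -0.0040. The lower gene was ITGA5, the fibronectin receptor subunit, which fell from 34.1 ± 1.99 to 25.0 ± 0.895 TPM (log2 fold change -0.43, limma adjusted p = 0.00193), with all NEAT1siRNA values below the CsiRNA range. CBX5, the heterochromatin protein gene beside the cluster, was at 68.7 and 68.5 TPM. Around the HOXB cluster 7 were tested and 2 were higher, against 4.99% of all genes, COPZ2 from 1.19 ± 0.379 to 2.59 ± 0.129 TPM (limma adjusted p = 7.02e-05) and CALCOCO2 from 7.84 ± 0.440 to 9.79 ± 0.545 TPM (limma adjusted p = 0.0386). The CALCOCO2 call was lost on leaving out any 1 library, with adjusted p up to 0.128. Near HOXA and HOXD 2 genes each were tested and none passed the threshold.

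RING1, of PRC1, and RXRB, a retinoid receptor, shared the mismatch seen for PBX2. The transcript lengths implied by their reads and TPM were 6.12 and 6.49 times those of their GENCODE transcripts. HOXC12 went the other way at 0.215 times, with a mean of 12.3 reads, so its TPM is high for its reads.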
